A study of Homo sapiens with 6 samples.

Results

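The genes of the major histocompatibility complex (MHC) class II pathway and their transactivator CIITA were read in A375 cells, a human melanoma cell line, with and without a knockdown of the kinase MAP4K5. The 9 genes were HLA-DRA, HLA-DPA1, HLA-DPB1, HLA-DQA1, HLA-DMA, HLA-DMB, HLA-DOA, CD74 and CIITA, and every probe set annotated to exactly 1 of these symbols was taken, which gave 45 of the 49293 probe sets on the array. A probe set is a group of short probes read as 1 value. Total RNA was profiled on 6 Affymetrix arrays, 3 of A375 cells without a knockdown (control) and 3 of A375 cells that stably express a short hairpin RNA against MAP4K5 (knockdown). Both groups grew untreated in the same serum-supplemented medium. Neither the hairpin's sequence, nor the number of hairpins or clones, nor any vector in the control cells is given in the sources used here, and effects of deriving the line other than MAP4K5 depletion cannot be told apart from it. The labels call the arrays biological replicates without saying how cultures were separated, so every error and p-value covers just the spread between arrays, which may be technical.

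MHC class II molecules are pairs of an alpha and a beta chain that show peptides from the endosomal pathway to CD4+ T cells. The classical pairs are HLA-DR, HLA-DP and HLA-DQ. CD74, the invariant chain, escorts new pairs to the endosome, HLA-DM exchanges its remnant for antigen peptides, and HLA-DO restrains HLA-DM. Professional antigen-presenting cells express these genes constitutively, most other cells do so after interferon gamma, and melanoma cells often carry class II without immune stimulation. Their promoters share an X box bound by the RFX complex and a Y box bound by NF-Y, and CIITA is the coactivator that docks on this assembly without binding DNA itself.

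The arrays were comparable in scale, with median intensities of 4.85 to 4.94, and levels here are intensities from robust multi-array averaging (RMA) on a linear scale. MAP4K5 measured 77.7, 78.1 and 76.3 in control and 19.7, 18.8 and 20.3 in knockdown arrays where its signal was strongest, 3.95-fold lower, and its other 2 probe sets gave 4.47-fold and 3.05-fold lower levels. Control replicate 2 stood apart from the other controls: over all genes it correlated with them at 0.992, against 0.997 between control replicates 1 and 3 and 0.993 to 0.994 between control 2 and the knockdown arrays. Its level is therefore given for each gene. Of 9 melanoma and neural crest markers, S100B, MIA, CSPG4, SOX10 and MITF gave intensities from 22.1 to 393, while the pigment genes PMEL, MLANA and TYR lay between 2.42 and 3.90 in all arrays. By limma, S100B, MIA and SOX10 fell, MITF rose and 5 did not pass, with the calls of MIA and SOX10 held only without control 2 among the fits without 1 array, and the summed level of the 9 was 505 to 713 in control and 437 to 464 in knockdown arrays. MIA, the brightest of the 9, weighed most in this sum, at 232 to 393 in control and 160 to 176 in knockdown arrays. Of the markers of leukocytes, which can carry class II, PTPRC, the pan-leukocyte phosphatase, lay between 2.15 and 2.42 and MS4A1, the B cell antigen CD20, between 2.39 and 2.89, while PAX5, CD68 and ITGAX lay between 15.9 and 67.6. The summed level of the 8 myeloid markers was 80.2 to 92.4 in control and 85.4 to 90.5 in knockdown arrays, that of 4 B cell markers 61.0 to 69.8 and 67.5 to 79.5, and that of 3 T cell markers 8.12 to 8.71 and 7.77 to 9.10. CD68, at 41.4 to 55.7, weighed most in the myeloid sum, and PAX5, at 49.3 to 67.6, in the B cell sum. LYZ, the secreted lysozyme, was the single one of these leukocyte markers that passed the test. It rose by 0.97 ± 0.13 (log2, SE) from 4.78 to 6.53 in control to 10.1 to 11.1 in knockdown arrays (limma adjusted p = 0.00491), and by 0.45 with probe sets ending in _x_at or _s_at left out. The part of these markers in the class II differences was not tested.

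The promoter windows of the members, 250 bases before to 50 bases after the annotated start, were read from RefSeq (GRCh38.p14), which matched 7 of the 9 genes with 8 windows, HLA-DPA1 having 2. HLA-DRA and CIITA were the others. The stretches below are shown because the X and Y boxes are what class II promoters are known to share. They run 5′ to 3′ on the strand of the gene. Capitals mark matches on either strand to CCAAT (the Y box core), to CCNNGNNAC (part of the X1 box) or to TGACG (one side of the X2 box). Each stretch is the piece of the window around its X1 or Y box matches, and the HLA-DPA1 window with the X1 match nearer its start is the one shown.
HLA-DMA (chr6:32953162-32953256, minus strand): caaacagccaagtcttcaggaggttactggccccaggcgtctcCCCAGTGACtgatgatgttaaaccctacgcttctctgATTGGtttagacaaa
HLA-DOA (chr6:33009644-33009738, minus strand): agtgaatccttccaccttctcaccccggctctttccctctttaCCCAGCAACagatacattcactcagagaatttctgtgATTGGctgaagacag
HLA-DPA1 (chr6:33073667-33073761, minus strand): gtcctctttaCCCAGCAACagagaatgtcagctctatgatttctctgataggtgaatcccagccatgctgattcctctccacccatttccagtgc
HLA-DMB (chr6:32941036-32941130, minus strand): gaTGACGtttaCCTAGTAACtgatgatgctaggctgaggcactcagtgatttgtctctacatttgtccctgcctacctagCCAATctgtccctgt
HLA-DQA1 (chr6:32637258-32637352, plus strand): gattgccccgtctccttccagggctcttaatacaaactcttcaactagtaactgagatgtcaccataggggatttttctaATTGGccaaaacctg
HLA-DPB1 (chr6:33075835-33075929, plus strand): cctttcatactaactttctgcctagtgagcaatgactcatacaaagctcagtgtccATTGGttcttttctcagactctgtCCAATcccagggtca
CD74 (chr5:150412949-150413043, minus strand): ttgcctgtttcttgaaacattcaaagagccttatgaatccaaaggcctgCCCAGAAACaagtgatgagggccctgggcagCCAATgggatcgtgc

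CCAAT was found in 6 of the 8 member windows, against 34.6% of all 35116 promoter windows in the table. CCNNGNNAC was found in 6 of 8, against 50.1%, and TGACG in 4 of 8, against 24.6%, with the HLA-DMB match the one inside a stretch shown. That TGACG lies 100 to 96 bases before the start, ahead of the X1 match at 91 to 83 bases, and was not read as an X2 box. Matches of different motifs did not overlap in any member window. In HLA-DMA and HLA-DOA, CCNNGNNAC was followed by ATTGG, the reverse complement of the Y box core, after 28 bases in each. A spacing of 15 to 40 bases, set after the windows were seen, occurred in 1.48% of all windows. HLA-DOA and HLA-DPA1 shared an identical run of 20 bases that includes this X1 match, starting 112 and 110 bases before their starts, and no other window of the table held it. TTCNNNGAA (STAT factors) was found in 1 member window, that of HLA-DQA1 (7.66% of all windows), while GAAA repeated after any 2 bases (IRF factors, 3.57%) and CACGTG (the E box, 7.26%) gave 0 of 8. A match describes letters in these windows and is no measure of binding, and the reference sequence need not be that of the HLA haplotypes of A375.

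Of the 8 members other than CIITA, 7 had probe sets that were called lower in the knockdown cells, HLA-DOA was dim and not called, and CIITA was dim in all arrays and its groups overlapped at its brightest probe set. The 9 genes were proposed with results of this contrast in view, so their differences are a description and carry no test. At the brightest probe set of each gene, that with the highest mean log2 level, 8 of 9 members were lower in knockdown cells, by 1.35-fold for HLA-DPB1 to 3.81-fold for HLA-DQA1, and the median log2 difference was -0.99, where the median over all 18132 genes was 0.01. Over all probe sets, limma at an adjusted p under 0.05 called 20 of the 45 lower, where 2.46% of all probe sets were called lower, and 0 higher, where 1.98% were called higher (0 were higher at an unadjusted p under 0.05). Of the 20 called probe sets, 17 end in _x_at or _s_at, which mark probes that can also bind other transcripts, and the other 3 belong to HLA-DMA and CD74. In 30 of 45 probe sets all knockdown arrays lay below all control arrays, against 11.7% of all probe sets, in 1 all lay above (12.1%), and in 14 the groups overlapped. Since the members were chosen on this contrast, nothing is read from these shares. In RNA from whole cultures, fewer cells that express class II and less class II RNA per cell cannot be told apart.

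**Figure D1:**
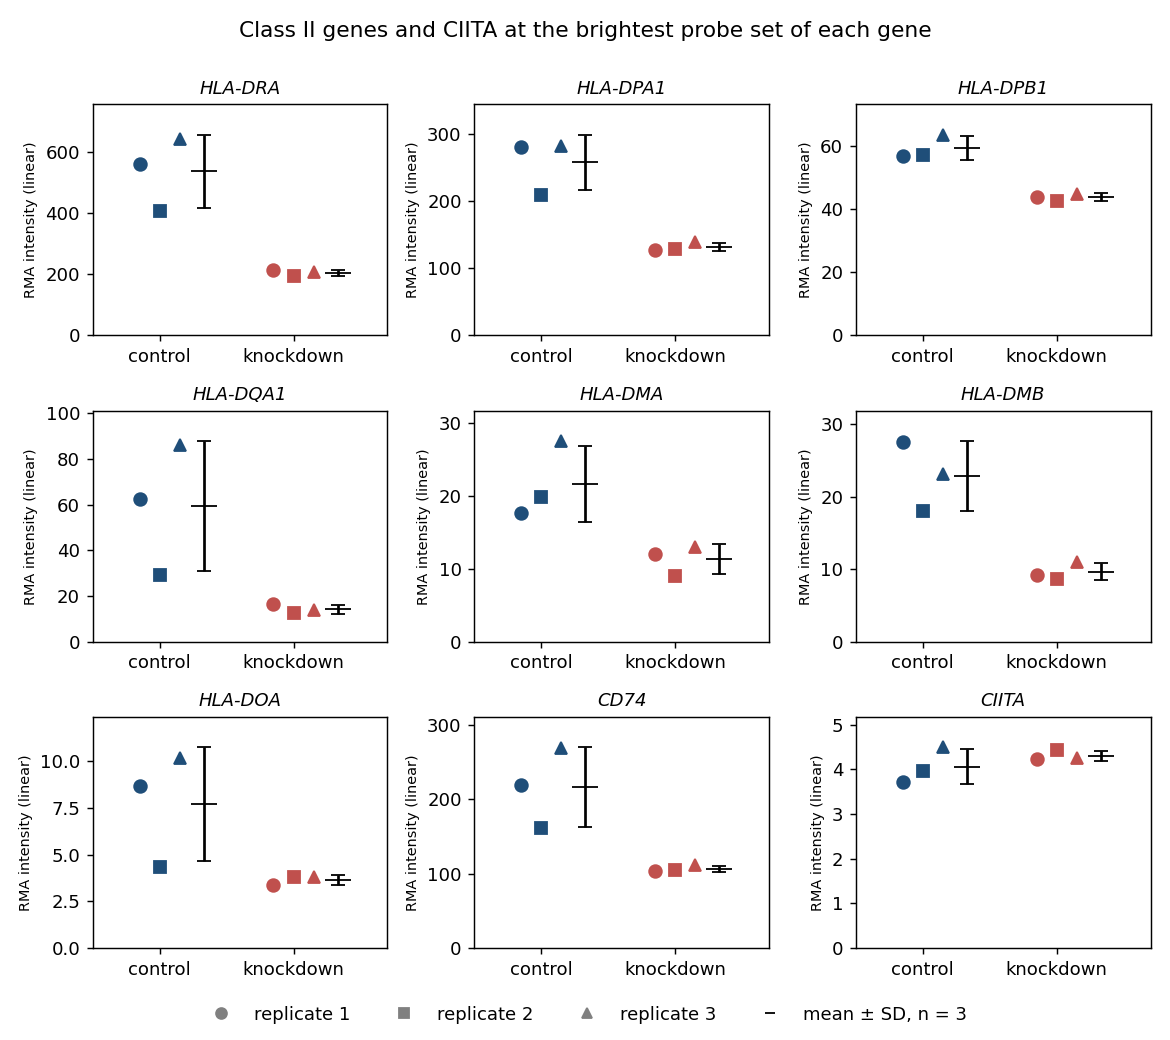
RMA intensity (linear axis from 0) of the 9 genes at the brightest probe set of each, with 1 point per array, shaped by replicate number, and bars for mean ± SD (n = 3 per group). In 8 panels the knockdown arrays lie below the control arrays, with control replicate 2 the lowest control for HLA-DRA, HLA-DPA1, HLA-DQA1, HLA-DMB, HLA-DOA and CD74, and in the CIITA panel the groups overlap, all arrays lying between 3.72 and 4.49.

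HLA-DRA encodes the nearly invariant alpha chain of HLA-DR. It measured 560.5, 405 and 641 in control replicates 1, 2 and 3 and 213, 194 and 207 in the knockdown arrays. Every control array was above every knockdown array, and control replicate 2 was the lowest control. The means were 536 ± 120.0 and 205 ± 9.54 (SD, n = 3 each), a log2 difference of -1.36 ± 0.16 (SE), or 2.57-fold lower, and the difference was -0.99 against control replicate 2 alone. This probe set ends in _s_at. A second, ending in _x_at, measured 358, 273 and 445 in control and 138, 138 and 140.2 in knockdown arrays. The remaining HLA-DRA probe set, the single one without such an ending, lay between 2.24 and 2.80 in all arrays, below the median of 4.93 over all probe sets, and its groups overlapped, with a difference of 0.14.

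HLA-DQA1, the alpha chain of HLA-DQ, had the widest difference and the widest spread on the log2 scale. Its bright probe set measured 62.6, 29.3 and 86.2 in control and 16.5, 12.6 and 13.7 in knockdown arrays. The groups did not overlap, but control replicate 2 stood at 39.4% of the mean of the other controls. The log2 difference was -1.93 ± 0.33 (SE, n = 3 per group) and ranged from -2.37 to -1.59 when 1 array was left out, and it was -1.05 against control 2 alone. The remaining 3 HLA-DQA1 probe sets lay between 2.15 and 2.93 in all arrays, with differences of -0.25 to 0.06. All 4 carry the ending _x_at, and the gene is highly polymorphic, so the difference rests on 1 probe set that can bind related chains. A probe set annotated to HLA-DQA1 and HLA-DQA2 together measured 8.64, 6.52 and 8.91 in control and 3.77, 5.45 and 5.26 in knockdown arrays (-0.74 ± 0.17), while the other 3 with both symbols were dim and gave -0.13, -0.04 and 0.06 with overlapping groups. One annotated to both HLA-DQA1 and HLA-DRA, likewise outside the rule for members, measured 47.0, 32.5 and 64.3 in control and 21.3, 17.9 and 21.8 in knockdown arrays.

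HLA-DPA1 and HLA-DPB1, the chains of HLA-DP, lie head to head as neighbours in the class II region. HLA-DPA1 measured 281, 210 and 283 in control and 127, 128 and 139 in knockdown arrays at its brightest probe set. No knockdown array reached any control, and control 2 was again the lowest control. Its log2 difference was -0.96 ± 0.13 (SE, n = 3 per group), and all 4 of its probe sets, each ending in _x_at or _s_at, gave -0.96 to -0.90. HLA-DPB1 measured 56.7, 57.2 and 63.5 in control and 43.8, 42.4 and 44.8 in knockdown arrays at its brightest probe set, 1 of 13. Here control 2 lay between the other controls and the groups again did not overlap, with a log2 difference of -0.44 ± 0.09. Its 8 probe sets above the median of all probe sets gave -0.59 to -0.09, beside -0.96 to -0.90 for HLA-DPA1.

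Read within each array, the log2 ratio of HLA-DPA1 to HLA-DPB1 at their brightest probe sets was 2.31, 1.88 and 2.15 in control and 1.54, 1.60 and 1.64 in knockdown arrays. The groups did not overlap, and the ratio was 0.52 lower on average in knockdown cells, where the ratio's own size cannot be read across probe sets. Probe sets can differ in how far they compress a change, and whether the changes of both genes differ was not tested. The HLA-DPB1 probe set that moved least among the bright ones, the single one of the 8 with a plain _at ending, measured 31.3, 31.6 and 37.5 in control and 31.3, 28.2 and 34.6 in knockdown arrays, and its groups overlapped. The other 7 end in _x_at. The 5 dim HLA-DPB1 probe sets lay between 2.51 and 3.99 and gave -0.19 to 0.18, and 1 of them was the single member probe set higher in every knockdown array than in every control array.

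**Figure D2:**
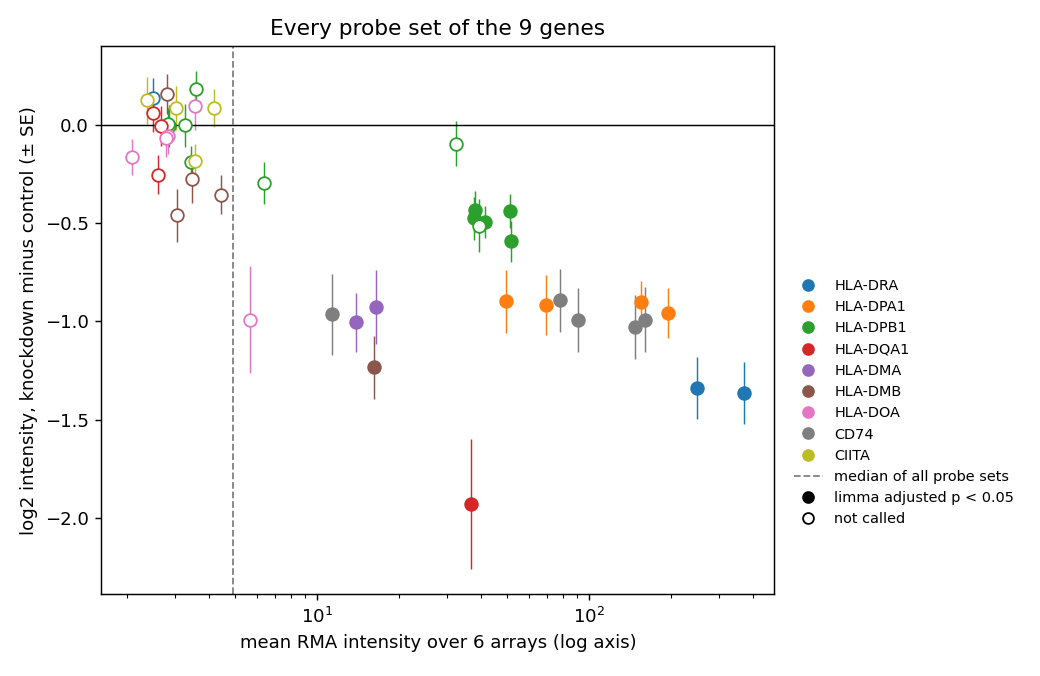
Log2 intensity of knockdown minus control (± SE of the limma fit) against mean RMA intensity over 6 arrays (log axis) for all 45 probe sets, coloured by gene, filled where the limma adjusted p over all probe sets was under 0.05. Filled points appear only to the right of the dashed line, the median of all probe sets at 4.93, with HLA-DPB1 between -0.59 and -0.43 and HLA-DPA1, CD74 and HLA-DMA between -1.03 and -0.89, while all 4 CIITA points lie left of it near 0.

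HLA-DMA and HLA-DMB form HLA-DM, the peptide editor. HLA-DMA measured 17.7, 19.8 and 27.6 in control and 12.0, 9.03 and 13.0 in knockdown arrays. The groups did not overlap, and in contrast to HLA-DRA control 2 was not the lowest control. The log2 difference was -0.93 ± 0.19 (SE, n = 3 per group), and the other probe set measured 17.2, 17.2 and 21.2 in control and 11.0, 7.53 and 9.35 in knockdown arrays. Neither HLA-DMA probe set ends in _x_at or _s_at. HLA-DMB measured 27.6, 18.0 and 23.1 in control and 9.26, 8.68 and 11.0 in knockdown arrays at its bright probe set, which ends in _s_at, a log2 difference of -1.23 ± 0.16. Its groups did not overlap either, while the log2 ratio of HLA-DMA to HLA-DMB did, at -0.64, 0.14 and 0.25 in control and 0.38, 0.06 and 0.25 in knockdown arrays. The other 4 HLA-DMB probe sets lay between 2.27 and 5.50 with differences of -0.46 to 0.16.

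HLA-DOA, the alpha chain of HLA-DO, was dim. Its brightest probe set measured 8.65, 4.32 and 10.1 in control and 3.35, 3.78 and 3.81 in knockdown arrays. Control replicate 2 stood near the knockdown arrays, at 45.9% of the mean of the other controls. The log2 difference of -0.99 ± 0.27 (SE, n = 3 per group) did not pass the limma test and was -0.25 against control 2 alone. The other 4 HLA-DOA probe sets lay between 1.81 and 4.03.

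CD74, the invariant chain, measured 219, 161 and 268 in control and 103, 105 and 111 in knockdown arrays. Control replicate 2 was the lowest control and still above every knockdown array. The log2 difference was -0.99 ± 0.17 (SE, n = 3 per group), and -0.60 against control 2 alone. All 5 CD74 probe sets showed groups that did not overlap, with differences of -1.03 to -0.89. One of them, ending in _a_at, which marks probes shared by transcripts of 1 gene, gave -0.96. Within each array, the log2 ratio of HLA-DRA to CD74 was 1.36, 1.33 and 1.26 in control and 1.05, 0.88 and 0.90 in knockdown arrays, groups that did not overlap. Whether the changes of these genes differ was not tested.

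CIITA, the transactivator, gave low intensities in every array. Its brightest probe set measured 3.72, 3.96 and 4.49 in control and 4.23, 4.43 and 4.26 in knockdown arrays, with overlapping groups and a log2 difference of 0.09 ± 0.10 (SE, n = 3 per group). The other 3 CIITA probe sets lay between 1.89 and 3.85. Of these, 1 was lower in all knockdown arrays, at 3.14, 3.45 and 3.43 against 3.85, 3.85 and 3.65 in control arrays (-0.18 ± 0.09), and the others gave 0.09 and 0.13. All 4 lay below the median of all probe sets. RMA compresses differences at such intensities and the deposited values carry no detection calls, so these values do not show that CIITA was unchanged.

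The spread among control arrays was shared by most members. Of the 24 member probe sets above the median of all probe sets, control replicate 3 was the highest control in 22. Control replicate 2 was the lowest control in 17 of them, or 70.8%. Over all probe sets above that median, whichever way they moved, control 2 was the lowest control in 36.7%. All 24 were lower in knockdown cells, so these shares are not like for like. Over all genes control 2 correlated with the knockdown arrays at 0.993 to 0.994, and controls 1 and 3 at 0.986 to 0.989. Whether control 2 was as often the lowest control among all falling probe sets was not tested. The exceptions for control 2 were 5 of 8 HLA-DPB1 and both HLA-DMA probe sets. In 23 of the 24, control 2 was above every knockdown array, and against control 2 alone their differences ran from -1.05 to -0.02. The range between control arrays was wider than that between knockdown arrays in 21 of 24, with median ranges of 0.62 and 0.19 (log2). Without control replicate 2, 24 of the 45 member probe sets were called lower, where 6.88% of all probe sets were. Leaving out control 1 or 3 gave 6 or 12 (0.809% or 0.953% of all probe sets), and leaving out knockdown replicate 1, 2 or 3 gave 5, 6 or 5 (0.446%, 0.548% or 0.641%), so the members' counts moved with those of the whole table. Called in the full fit and in all 6 of these fits were 4 probe sets, 2 of HLA-DRA, 1 of HLA-DPA1 and 1 of HLA-DMB. The median was compared with means over all 6 arrays, so control levels counted toward passing it, and what sets control 2 apart was not tested.

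**Figure D3:**
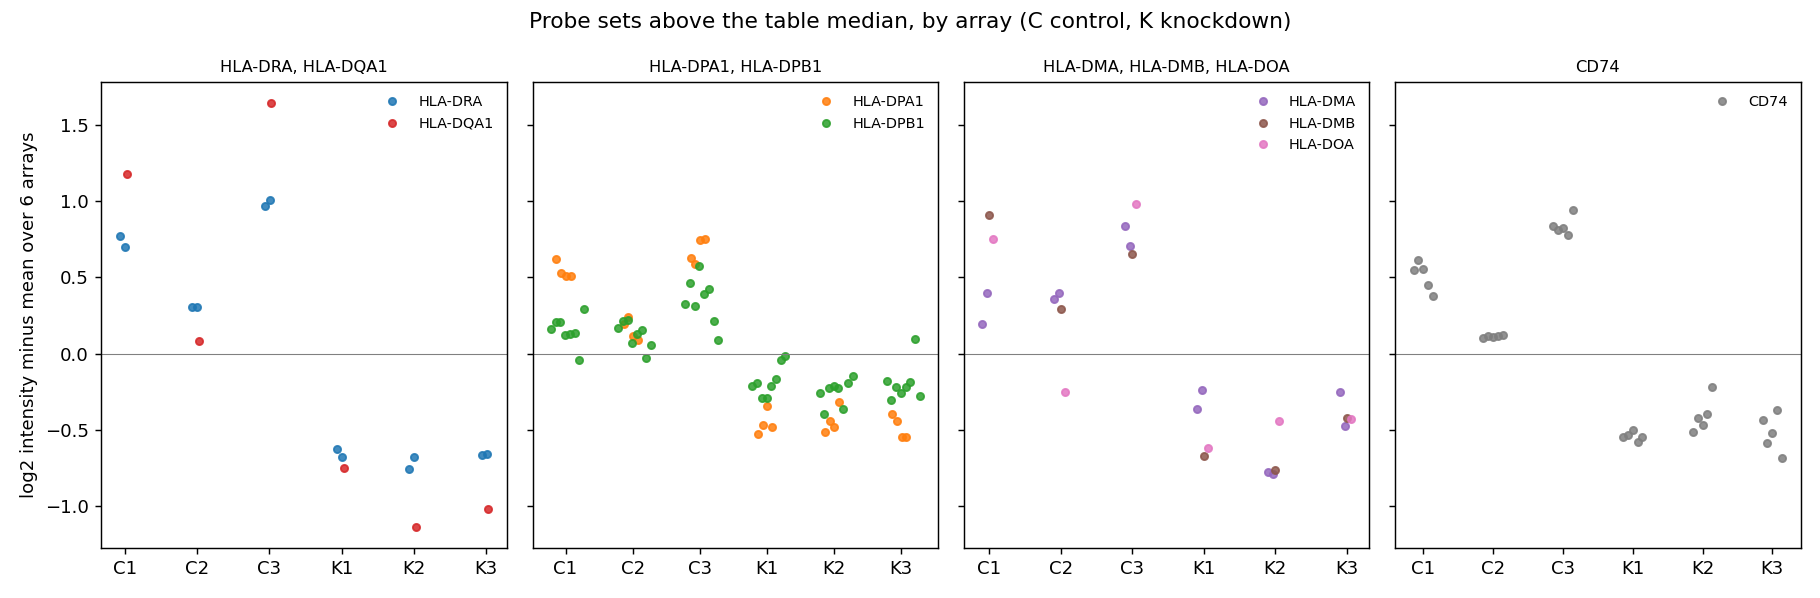
Log2 intensity minus the probe set's mean over the 6 arrays for the 24 member probe sets above the median of all probe sets, by array (C control, K knockdown), 1 point per probe set. Control 2 lies below controls 1 and 3 for HLA-DRA, HLA-DQA1, HLA-DPA1, HLA-DOA and CD74 and overlaps them for HLA-DPB1, and in 23 of 24 probe sets it stays above the knockdown arrays.

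The other genes of the pathway were read at the gene level, with the probe set of highest mean per gene and limma over all 18132 genes, where 4.13% fell, 3.7% rose and 7.83% were called either way. Of 76 listed genes, 67 were measured by a probe set with 1 symbol. Of these, 4 fell (HLA-DRB1, HLA-DRB4, RFXAP and CTSS), 3 rose (MITF, CSTB and CST3) and 60 did not pass, with a median log2 difference of -0.01 over the 67. The share called was 10.4%. Without control replicate 2, 12 fell and 6 rose, 26.9% of the 67 where 20.6% of all genes were called. In the other fits without 1 array, 2 or 3 fell and 0 to 2 rose.

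Among 5 measured class II chains that are not members, the beta chain genes HLA-DRB1 and HLA-DRB4 fell and 3 did not pass (median -0.20). HLA-DRB1 measured 89.1, 66.0 and 107 in control and 35.9, 35.0 and 38.1 in knockdown arrays, a log2 difference of -1.24 ± 0.16 (SE, n = 3 per group, limma adjusted p = 0.00454). HLA-DRB4 measured 90.4, 62.8 and 96.2 in control and 37.5, 37.3 and 37.7 in knockdown arrays (-1.12 ± 0.15, limma adjusted p = 0.00543). As for HLA-DRA, control 2 was the lowest control and no knockdown array reached it, and both calls held in all 6 fits without 1 array. Each gene was read by 1 probe set ending in _x_at, and the HLA-DRB genes are near-identical, so the probe sets may read the same transcripts. A probe set annotated to HLA-DRB1, HLA-DRB3, HLA-DRB4 and HLA-DRB5 together gave -1.23 ± 0.19 and one annotated to HLA-DRB1, HLA-DRB3 and HLA-DRB5 -1.36 ± 0.18. A pair annotated to HLA-DRB1, HLA-DRB4 and HLA-DQB1 lay between 2.30 and 5.49 and gave -0.38 and -0.06, neither called. The 3 class II chains that did not pass were dim, HLA-DQB1 at -0.20, HLA-DRB5 at -0.03 and HLA-DOB at 0.22.

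Of 7 measured factors of the class II promoter assembly, RFXAP fell and 6 did not pass (median -0.16). RFXAP, a subunit of the RFX complex on the X box, measured 17.2, 16.2 and 19.0 in control and 11.4, 12.3 and 14.4 in knockdown arrays (-0.46 ± 0.11 SE, n = 3 per group, limma adjusted p = 0.0414). No knockdown array reached a control array, but of the fits without 1 array only that without control 2 kept the call, and it was not called with an intensity trend, with an offset of 16 or in the test over all probe sets. None of 8 measured cofactors of CIITA passed limma's test (3 at an unadjusted p under 0.05). The chromatin remodelling ATPase SMARCA4 had the smallest p of these, at 0.19 ± 0.08 (limma adjusted p = 0.177).

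Of 11 measured genes on the route from interferon gamma to CIITA, MITF rose and 10 did not pass (median -0.00), and 3 of the 11 were called with array weights. MITF, the lineage transcription factor of melanocytes, which binds E boxes, measured 50.6, 79.4 and 52.8 in control and 122, 116 and 118 in knockdown arrays, a rise of 0.99 ± 0.16 (log2, SE, n = 3 per group, limma adjusted p = 0.0114). Control 2 was the highest control and still below every knockdown array, and the difference was 0.58 against it alone. The call was lost without any 1 knockdown array. Without control 2, IRF1, IFNGR1 and IFNGR2 fell as well, in a fit where 20.6% of all genes were called. The interferon regulatory factor IRF8, named outside the rule for these lists, lay between 3.20 and 3.82 in all arrays.

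Of 11 measured genes of endosomal antigen processing, CSTB and CST3 rose, CTSS fell and 8 did not pass (median 0.31), and 4 of the 11 were called with array weights. CSTB and CST3 encode cystatins, inhibitors of cysteine cathepsins, and CTSS encodes cathepsin S, which trims the invariant chain. CSTB measured 310.2, 430.2 and 308 in control and 531, 526 and 530.1 in knockdown arrays (0.62 ± 0.13 SE, n = 3 per group, limma adjusted p = 0.0299). CST3 measured 81.0, 84.6 and 96.1 in control and 124, 125 and 109 in knockdown arrays (0.45 ± 0.10, limma adjusted p = 0.0315). CTSS was dim, at 4.55, 4.40 and 4.68 in control and 2.89, 3.86 and 2.94 in knockdown arrays (-0.51 ± 0.12, limma adjusted p = 0.0406). The 3 genes had groups that did not overlap. With an offset of 16, CSTB and CTSS were not called. The call of CSTB held only without control 2 among the fits without 1 array, that of CST3 only without control 2 or 3, and that of CTSS only without control 2 or knockdown 2. In the test over all probe sets, where 4.43% were called, the calls covered 4 of 4 probe sets of CSTB, 1 of 2 of CST3 and 0 of 2 of CTSS. With probe sets ending in _x_at or _s_at left out, CSTB stood at 0.78 (limma adjusted p = 0.0158) and CTSS at -0.17, not called.

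In limma's test, 0 of 18 measured genes of class I presentation passed (median -0.02, 1 at an unadjusted p under 0.05 and 2 called with array weights), 0 of 4 CD74 ligands and partners (median 0.02, 0 unadjusted) and 0 of 3 genes of class II turnover (median -0.02, 0 unadjusted). Among the CD74 partners, CD44 gave -0.02 at its probe set of highest mean. In the test over all probe sets, however, 7 of its 10 probe sets were called, where 4.43% of all probe sets were. Their directions and sizes are not reported here, so the value of -0.02 does not stand for CD44 as a whole. HLA-E, a class I heavy chain, had the smallest p of the class I list. It measured 97.5, 65.5 and 98.7 in control and 63.0, 62.5 and 70.6 in knockdown arrays (-0.39 ± 0.16 SE, n = 3 per group, limma adjusted p = 0.178). Control 2 lay among the knockdown arrays, and without it 4 class I genes fell and 1 rose, 27.8% of the 18 beside 20.6% of all genes. MIF, a cytokine and ligand of CD74, gave 0.09 ± 0.07 (limma adjusted p = 0.551), and the ubiquitin ligase MARCHF1, which removes class II from the surface, -0.12 ± 0.17 (limma adjusted p = 0.746). The difference between class II and class I genes was not tested.

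**Figure D4:**
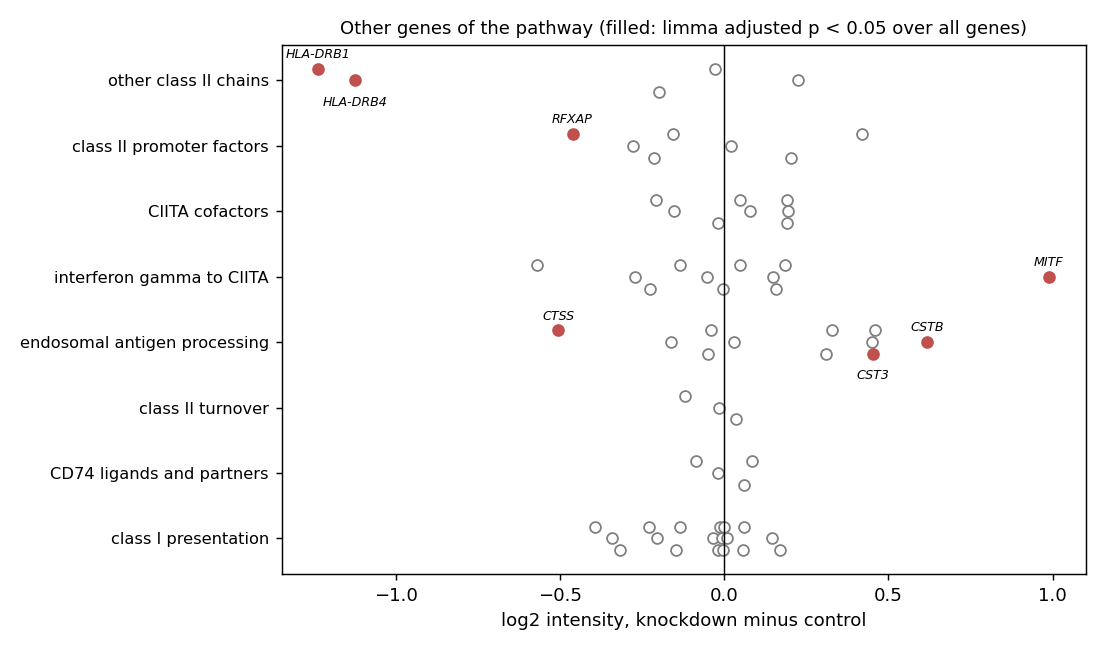
Log2 intensity of knockdown minus control for the 67 measured genes of the pathway that are not members, by list, filled and named where the limma adjusted p over all genes was under 0.05. HLA-DRB1 and HLA-DRB4 stand at -1.24 and -1.12 and MITF at 0.99, with all 18 class I points open between -0.39 and 0.17.

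The genes whose pattern over the 6 arrays was nearest to HLA-DRA were found by the root mean square difference of log2 levels, each centred on its own mean. HLA-DRB1 was nearest at 0.08. It was followed by SLC38A1, an amino acid transporter (0.08), S100B, a calcium-binding protein of melanocytic and glial cells (0.09), LOXL4, a lysyl oxidase family enzyme (0.10), DEPDC7 (0.11) and OCRL, a phosphoinositide phosphatase (0.11). Of the other members, HLA-DMB (0.17), CD74 (0.20) and HLA-DPA1 (0.22) were the nearest to HLA-DRA and CIITA the farthest (0.75). S100B measured 66.2, 55.2 and 82.0 in control and 26.9, 24.7 and 29.7 in knockdown arrays, with control 2 again the lowest control. Nearest to CD74 were PAPLN, an extracellular matrix protein gene (0.06), SH3PXD2A, a scaffold of invadopodia (0.07), ICA1 (0.08) and the long non-coding RNA CRNDE (0.08), while HLA-DPA1, the nearest member, stood at 0.10. These genes were picked for their likeness over the same 6 arrays, which describes them and tests nothing.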

How the data were processed

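The deposited values were linear intensities of probe sets (from 1.55 to 6658, none below 0), which the authors made with RMA, per the submitters' processing notes. A version and a genome build are not stated in the sources used here. RMA equalises the arrays' distributions and compresses differences of dim probe sets. The number of arrays limits the precision. Probe sets were named by the platform annotation (44988 with 1 symbol, 1832 with several, 2473 with none), and the symbols of all 45 member probe sets matched RefSeq through their Entrez identifiers.

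Log2 intensities of 3 knockdown and 3 control arrays were compared with limma 3.58.1 in R 4.3.3 (lmFit, eBayes), with Benjamini-Hochberg adjustment over 49293 probe sets, or 18132 genes at the probe set of highest mean log2 level, and a threshold of 0.05. No filter on low values was applied. The fits were tested on simulated data. Differences are knockdown minus control. All other steps used Python 3.11.15, with figures drawn in matplotlib 3.10.9.

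The members and lists were chosen with earlier results of these data known. All members were named, and of each list the called genes that rose most (at most 2) and fell most (at most 2), or else the gene with the smallest p. Further list genes, such as IRF8, were named outside this rule. Alternatives were a replicate block, an intensity trend, array weights, repeated quantile normalization, leaving out the lowest 50%, an offset of 16, leaving out each array, control replicate 2 alone, averaging probe sets by gene and leaving out _x_at and _s_at probe sets. A planned comparison of protein sequences was not made. Some listed genes are not reported here.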

Additional observations from a re-analysis of the deposited data

How the results depend on the processing

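The median log2 difference over the brightest probe sets of the 9 genes, -0.99, ranged from -1.19 to -0.82 without 1 array. It was -0.60 with an offset of 16, which shrinks dim probe sets by construction, and -0.67 against control replicate 2 alone. With the lowest 50% of probe sets left out, CIITA left the table and no value over 9 genes was made. The counts of called probe sets (2186), genes (1420) and pathway genes (7) rose to 4652, 3103 and 14 with array weights. Without 1 array they ranged from 391 to 6599, from 324 to 3732 and from 2 to 18, each highest without control replicate 2. Without _x_at and _s_at probe sets 3 pathway genes were called and HLA-DRB1, HLA-DRB4 and CST3 had no other probe set. The replicate block gave 1990, 1188 and 6, and 16 member probe sets in place of 20, with limma adjusted p = 0.0608 for CST3 and 0.0543 for CTSS. Deviations from the group means correlated across genes at -0.08, 0.02 and 0.06 for replicates 1, 2 and 3, and from -0.08 to 0.06 between arrays of unlike numbers. With 3 arrays a group, these values cannot tell whether the same numbers pair the arrays. Signal over background limits HLA-DOA, CIITA and CTSS, whose levels lie near the median of all probe sets or below it.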

Other observations

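Of the pathway genes that did not pass, 7 had a limma adjusted p from 0.05 to 0.1, a range set after their values were seen. CTSH, the cysteine protease cathepsin H, measured 13.7, 12.4 and 14.9 in control and 21.4, 16.3 and 18.6 in knockdown arrays (0.45 ± 0.12 log2, SE, n = 3 per group, limma adjusted p = 0.0574). IRF1, an interferon-induced transcription factor that acts on CIITA, measured 16.7, 11.6 and 16.3 in control and 10.7, 10.5 and 8.57 in knockdown arrays (-0.57 ± 0.16, limma adjusted p = 0.0628), with control 2 the lowest control. RFX5, a subunit of the RFX complex, measured 206, 193 and 205 in control and 169, 168 and 161 in knockdown arrays (-0.28 ± 0.08, limma adjusted p = 0.0669). All 7 genes in this range had groups that did not overlap. Over all genes, 13.2% lay lower and 14.9% higher in knockdown arrays without overlap. IFI30, the lysosomal thiol reductase that unfolds antigens, gave 0.46 ± 0.14 (limma adjusted p = 0.0813), and IFNGR1, a chain of the interferon gamma receptor, -0.27 ± 0.08 (limma adjusted p = 0.0851). CTSL, the cysteine protease cathepsin L, gave 0.31 ± 0.10 (limma adjusted p = 0.0914), and NFYA, a subunit of NF-Y on the Y box, 0.42 ± 0.13 (limma adjusted p = 0.0997).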
